A study of Homo sapiens with 21 samples.

Results

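Islet cells that lacked ISL1 were compared directly with islet cells that lacked PAX6, both without an ISL1 vector. The comparison takes the 3 libraries whose names mark the ISL1 knockout with the BFP vector and the 3 that mark the PAX6 knockout with the BFP vector, which are 6 of the 21 libraries in the series. All genes were compared, with no selection on measured values. The cells were H1 human embryonic stem cells differentiated towards islets. On day 11 the cells were given a lentivirus, and on day 18 cells with the fluorescent protein BFP were sorted and their RNA was sequenced. The 6 libraries carried BFP alone and differed in genotype, ISL1-/- or PAX6-/-. Libraries of unedited cells (WT) with BFP (n = 2) are given beside them as a reference level, and the same genotypes with a vector that carries ISL1 and BFP (n = 3 each) served as a second pair of groups. The remaining groups of the series were cells that lacked PDX1 (PDX1-/-) with either vector and WT with the ISL1 vector. All 21 libraries entered the model that estimated the spread. The labels name no clone, and the number of clones behind each knockout was not given in the sources used here. The series' design text calls libraries of a group biological replicates.

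ISL1 is a LIM-homeodomain transcription factor that works with the adaptor LDB1, and PAX6 carries a paired domain and a homeodomain. Both bind DNA in pancreatic endocrine cells, the hormone-producing cells of the islet, which comprise beta (insulin), alpha (glucagon), delta (somatostatin), epsilon (ghrelin) and PP (pancreatic polypeptide) cells. In mice, loss of either factor is known to lower insulin and glucagon, and loss of Pax6 is known to raise the number of ghrelin cells.

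The total was 46.2 to 60.2 M counts in each of the 6 libraries, and 33472 to 35322 genes had at least 1 count. Mitochondrial genes took 1.28 to 1.83% of the counts. Across all genes tested, log2 values of 2 libraries of the same genotype correlated at 0.982 to 0.988 (6 pairs) and those of different genotypes at 0.971 to 0.975 (9 pairs). The endocrine secretory marker CHGA was abundant in each of the 6 libraries, from 15191 to 32938 CPM, which are counts scaled to a common library size. Values are scaled for library composition and carry no correction for gene length, so levels are compared within a gene. 2 libraries outside the comparison stand apart from their groups, PAX6-/- with the ISL1 vector replicate 3 and PDX1-/- with the ISL1 vector replicate 2. Mitochondrial genes took 3.16 and 3.84% of their counts, against 1.39 to 1.54% in the other libraries of those groups. In the latter, INS had 25612 CPM and GCG 106084 CPM, against 164 and 11660 CPM in the other library of its group. Whether these libraries match their labels was not tested. Both entered the shared estimate of the spread, so the leading counts are also given without them.

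Transcripts of ISL1, on the plus strand of chromosome 5 from 51383448 to 51394730 in GRCh38, stood at 73.7, 74.6 and 82.4 CPM in the ISL1-/- libraries and at 209, 133 and 236 CPM in the PAX6-/- libraries. The groups did not overlap, but ISL1-/- minus PAX6-/- gave a log2 difference of -1.32 with SE 0.36, which did not pass the threshold (adjusted p 0.061, edgeR quasi-likelihood test with Benjamini-Hochberg adjustment over 25884 genes). ISL1 was called in 11 of 16 other settings, with log2 fold changes from -1.40 to -1.28, and in 1 of the 6 fits that left out a BFP library. Between the knockouts, a positive log2 fold change is a higher level in ISL1-/-. Against WT with BFP, at 306 and 519 CPM, ISL1 was lower in ISL1-/- by a log2 fold change of -2.42 (adjusted p 0.00126). In that contrast 5.59% of all genes were called, and 5.51% were called between PAX6-/- and WT. With the ISL1 vector, ISL1 had 71.6, 85.1 and 96.8 CPM in ISL1-/- and 166, 126 and 356 CPM in PAX6-/-. These values overlapped those of the same genotype with BFP, so the ISL1 count did not mark the vector. Whether reads from the vector were counted for ISL1 was not tested. For PAX6, on the minus strand of chromosome 11 from 31784779 to 31817961, there were 73.5, 71.4 and 111 CPM in ISL1-/- and 143, 99.5 and 166 CPM in PAX6-/-. These values overlapped, and the log2 fold change was -0.68 (SE 0.41, adjusted p 0.67). PAX6 was called in 2 of 16 other settings, with log2 fold changes from -0.82 to -0.64 over the 16. The PAX6 count did not mark the PAX6-/- libraries, and a count over the whole gene does not show whether a short edit is present. The exons of PAX6 overlap those of ELP4 and PAUPAR on the opposite strand, and whether strand was used in counting was not given in the sources used here. PDX1, a pancreatic transcription factor that neither line was edited for, had 81.6 to 104 CPM in ISL1-/- and 63.3 to 81.4 CPM in PAX6-/- (log2 fold change 0.30, SE 0.21, adjusted p 0.768).

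Of 25884 genes tested, 636 (2.46%) passed the threshold of an adjusted p under 0.05 and are called different below. Of these, 196 (0.757% of all genes tested) were higher in ISL1-/- and 440 (1.7% of all genes tested) were higher in PAX6-/-. The 3 libraries of one knockout lay apart from the 3 of the other for all 636 called genes, against 22.9% of all genes tested. The median absolute log2 fold change of the called genes was 1.97, and 589 of them differed by more than 1 on the log2 scale. The median log2 fold change over all genes tested was -0.01. Without both libraries that stand apart, 2385 genes were called, of which 1045 (43.8%) were higher in ISL1-/-, against 30.8% of the 636. With 1 of the 6 libraries left out, between 351 and 525 genes were called.

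**Figure D1:**
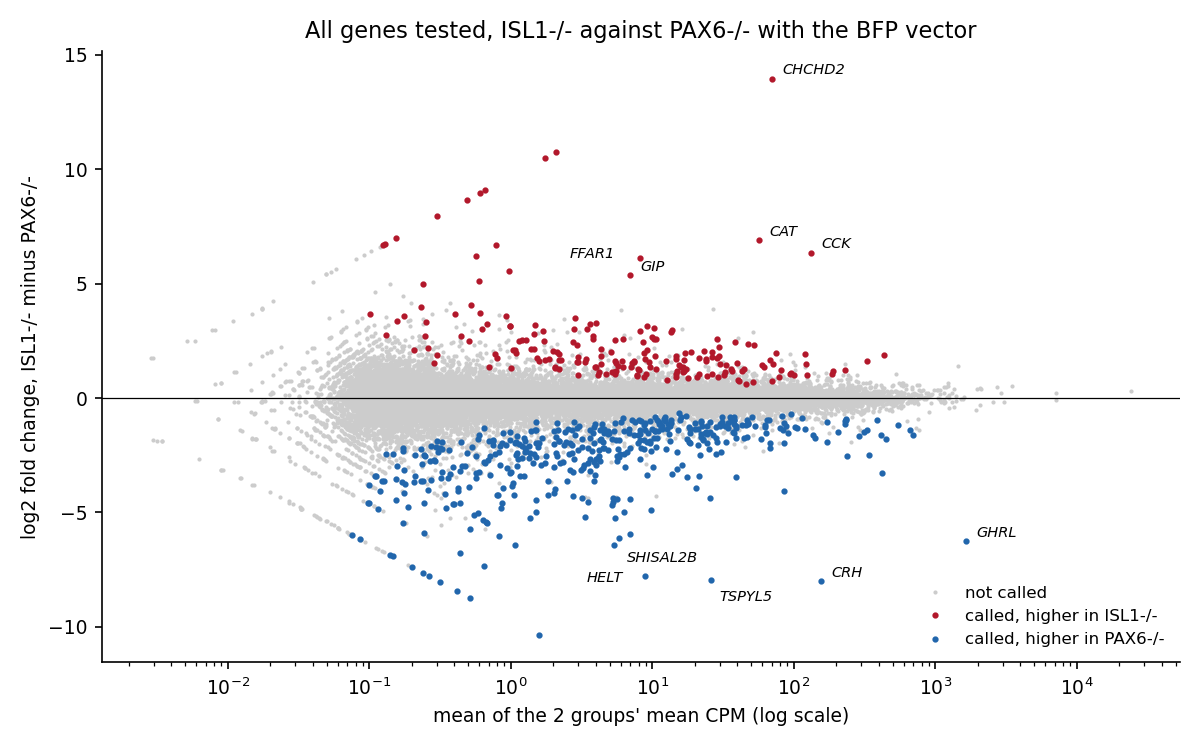
Log2 fold change of ISL1-/- minus PAX6-/- with BFP (vertical axis) against the mean of both groups' mean CPM (horizontal axis, log scale) for each gene tested. Red points are the 196 genes called higher in ISL1-/-, blue points the 440 called higher in PAX6-/-, grey points are not called, and the 5 genes with the largest difference in each direction among the named genes at 10 CPM or more in the higher group are labelled.

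Of the peptide hormone genes, some differed between the knockouts in each direction. Ghrelin, somatostatin and corticotropin-releasing hormone transcripts were higher in PAX6-/-, and cholecystokinin and GIP transcripts were higher in ISL1-/-. Of 9 gut peptide hormone genes tested, these last 2 were called higher in ISL1-/-, and 1, NTS, was called higher in PAX6-/-. Over all genes tested, 0.757% and 1.7% were called in these directions. The NTS call held in 1 of the 6 edgeR fits that left out a BFP library (adjusted p up to 0.142). Insulin and glucagon transcripts did not pass the test between the knockouts, a result that depended on the setting. Insulin was called in 6 of 16 other settings and glucagon in 1 of 15. In sorted cells sequenced in bulk, fewer cells of a type and less RNA per cell cannot be told apart.

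GHRL, which encodes the appetite hormone ghrelin of epsilon cells (chromosome 3, 10285666 to 10292947, minus strand), had 40.9, 37.3 and 50.8 CPM in ISL1-/-. In PAX6-/- it had 3481, 2519 and 3773 CPM. The 74.5 and 83.6 CPM of the WT libraries lay close to the ISL1-/- level, and each PAX6-/- library was far above both. The log2 fold change between the knockouts was -6.24 (SE 0.65, adjusted p 2.88e-05, edgeR quasi-likelihood test), and PAX6-/- exceeded WT by 5.36 (adjusted p 0.000627). The exons of GHRL overlap those of GHRLOS on the opposite strand, which had 12 to 95 counts in the 6 libraries, where GHRL had 2150 to 199466.

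CRH, which encodes corticotropin-releasing hormone, the hypothalamic peptide that drives the pituitary stress axis, showed the lowest log2 fold change of the called genes at 10 CPM or more in the higher group. It had 1.13, 1.18 and 1.32 CPM in ISL1-/- and 320, 228 and 383 CPM in PAX6-/-. The 24.04 and 26.1 CPM of the WT libraries lay between the knockouts. The log2 fold change was -7.997 (SE 0.94, adjusted p 8.41e-05). SST, the delta cell hormone somatostatin, had 0.39, 0.572 and 0.56 CPM in ISL1-/- and 10.9, 4.66 and 16.7 CPM in PAX6-/-. Both knockouts were below the WT libraries, at 92.7 and 138 CPM, and ISL1-/- was the lower of the knockouts (log2 fold change -4.397, SE 0.88, adjusted p 0.00945). The SST call was lost without any 1 of the 3 ISL1-/- libraries (adjusted p up to 0.0638).

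CCK, which encodes cholecystokinin, a gut hormone that triggers gallbladder contraction and pancreatic enzyme release, had 268, 252 and 263 CPM in ISL1-/- and 3.05, 3.5 and 2.99 CPM in PAX6-/-. The ISL1-/- libraries lay within the range of the WT libraries, which had 286 and 140 CPM, while PAX6-/- was below WT by a log2 fold change of -6.06 (adjusted p 0.00243). Between the knockouts the log2 fold change was 6.36 (SE 1.00, adjusted p 0.00142). GIP, the glucose-dependent insulinotropic peptide of gut K cells, had 14.3, 13.2 and 13.0 CPM in ISL1-/- and 0.353, 0.321 and 0.303 CPM in PAX6-/-. The WT libraries were higher than both, with 30.9 and 52.3 CPM, and PAX6-/- was below WT by a log2 fold change of -6.99 (adjusted p 0.00218). The difference between the knockouts was 5.37 (SE 1.06, adjusted p 0.00836), and it missed the threshold without PAX6-/- replicate 1 or replicate 3 (adjusted p up to 0.0553).

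INS, which encodes insulin, had 2252, 2392 and 1700 CPM in ISL1-/- and 938, 803 and 636 CPM in PAX6-/-. Every ISL1-/- library was above every PAX6-/- library, and the WT libraries, at 7185 and 5651 CPM, were above both. The log2 fold change of 1.42 (SE 0.87) had an adjusted p of 0.686. INS was called in 6 of 16 other settings, among them without both libraries that stand apart, with log2 fold changes from 1.40 to 1.45, and in 0 of the 6 fits that left out a BFP library. GCG, which encodes glucagon, had 90.9, 74.2 and 85.3 CPM in ISL1-/-, 29.1, 15.7 and 77.9 CPM in PAX6-/-, and 36246 and 51317 CPM in WT. Its knockout values overlapped, both far below WT (log2 fold change between knockouts 1.03, SE 0.82, adjusted p 0.85). IAPP, the beta cell peptide amylin (log2 fold change -1.30), and the islet and gut peptides PPY (-2.73) and PYY (1.00) were at or below 1.23 CPM in all 6 libraries and were not called. The PPY counts, 1 in ISL1-/- and 8 in PAX6-/-, give a ratio of 9.09 with a 95% counting interval from 1.22 to 403.

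**Figure D2:**
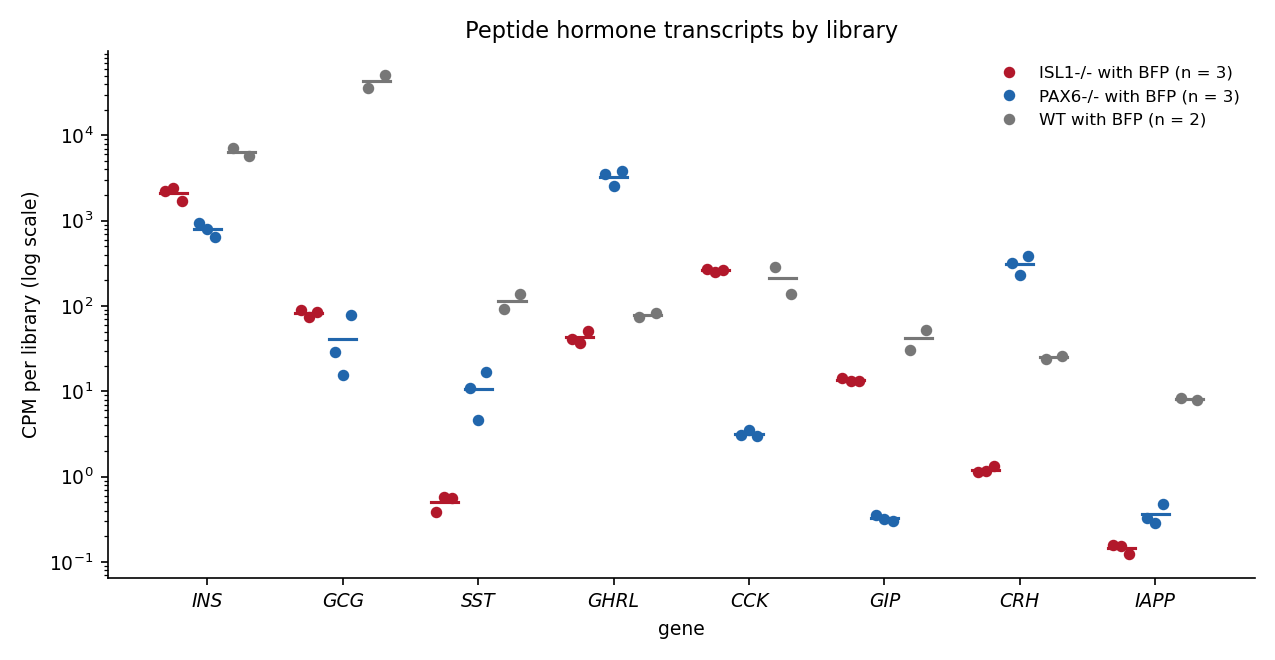
CPM per library (vertical axis, log scale) of 8 peptide hormone genes in ISL1-/- with BFP (red, n = 3), PAX6-/- with BFP (blue, n = 3) and WT with BFP (grey, n = 2). Points are libraries and bars are group means: GHRL and CRH are highest in PAX6-/-, CCK and GIP are lowest in PAX6-/-, and GCG is far below WT in both knockouts.

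The bases before the start of GHRL, SST, CCK and GIP are shown because these hormone genes separated the knockouts in opposite directions and because homeodomains, which ISL1 and PAX6 both carry, are known to recognise the core TAAT. Each line gives the 250 bases upstream of the gene start, 5′ to 3′ on the strand of the gene, from RefSeq on GRCh38.p14, with each TAAT or its reverse complement ATTA in capitals.
GHRL (chr3:10292948-10293197, minus strand): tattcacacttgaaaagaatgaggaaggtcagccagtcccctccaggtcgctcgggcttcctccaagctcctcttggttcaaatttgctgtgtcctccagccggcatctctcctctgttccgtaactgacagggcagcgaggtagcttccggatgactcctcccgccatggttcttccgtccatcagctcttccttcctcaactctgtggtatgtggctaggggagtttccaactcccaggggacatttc
SST (chr3:187670395-187670644, minus strand): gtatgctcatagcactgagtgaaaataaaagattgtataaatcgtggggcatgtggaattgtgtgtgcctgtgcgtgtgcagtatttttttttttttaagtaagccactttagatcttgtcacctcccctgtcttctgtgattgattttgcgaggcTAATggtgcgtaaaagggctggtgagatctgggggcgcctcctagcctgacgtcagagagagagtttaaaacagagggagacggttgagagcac
CCK (chr3:42266186-42266435, minus strand): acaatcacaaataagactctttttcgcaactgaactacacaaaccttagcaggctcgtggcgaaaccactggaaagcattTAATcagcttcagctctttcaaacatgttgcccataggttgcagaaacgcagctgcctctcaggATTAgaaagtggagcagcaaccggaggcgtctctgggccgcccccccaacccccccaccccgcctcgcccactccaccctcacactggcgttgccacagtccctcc
GIP (chr17:48968597-48968846, minus strand): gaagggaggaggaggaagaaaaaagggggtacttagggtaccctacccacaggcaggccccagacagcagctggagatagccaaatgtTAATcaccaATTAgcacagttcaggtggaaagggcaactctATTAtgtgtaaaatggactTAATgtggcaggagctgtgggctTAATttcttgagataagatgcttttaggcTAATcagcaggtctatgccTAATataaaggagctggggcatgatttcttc
These letters occurred 0 times in the GHRL window, 1 time in that of SST, 2 times in that of CCK and 7 times in that of GIP. Over genes, 14750 of the 25884 tested matched a promoter in the RefSeq table, and 36.2% of these held TAAT on either strand in the 250 bases. The share was 45.8% (55 of 120) for called genes higher in ISL1-/- and 35.3% (100 of 283) for called genes higher in PAX6-/-, and it was 47.4% over all 35116 promoters of the table. A match is a description of the letters, and binding was not measured.

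Over all genes tested, 1.7% were called higher in PAX6-/- and 0.757% higher in ISL1-/-, the shares to set beside each list below. Of the 9 tested members of the epsilon cell list, 4 were called, all higher in PAX6-/-: GHRL, MBOAT4, ACSL1 and FRZB. The list's median log2 fold change was -0.71, against -0.01 over all genes tested. MBOAT4, the enzyme that attaches the fatty acid to ghrelin, had 2.07, 1.85 and 1.1 CPM in ISL1-/- and 11.8, 6.71 and 10.4 CPM in PAX6-/-, where the log2 fold change was -2.52 (SE 0.33, adjusted p 0.00022, edgeR). The exons of MBOAT4 overlap those of LEPROTL1. ACSL1, which activates long-chain fatty acids with coenzyme A, had 73.1, 91.4 and 71.7 CPM in ISL1-/- and 899, 552 and 850 CPM in PAX6-/-. The groups were widely apart, and the WT libraries (113 and 124 CPM) lay near ISL1-/- (log2 fold change between knockouts -3.28, SE 0.51, adjusted p 0.00113). FRZB, a secreted WNT antagonist, had 24.9, 28.7 and 20.6 CPM against 121, 106 and 110 CPM (log2 fold change -2.18, adjusted p 0.00551). The other 5 tested members were not called, among them OPRK1, ANXA13 and DEFB1, whose log2 fold changes were from 0.24 to 0.61.

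Alpha cell genes did not move in a single direction. Of 14 members tested, 3 were higher in PAX6-/-, among them LOXL4 and FAP, and GC was higher in ISL1-/-, with a list median of -0.40. In these directions 1.7% and 0.757% of all genes tested were called. LOXL4, a lysyl oxidase-like enzyme, had 1.63 to 2.98 CPM in ISL1-/- and 29.4 to 65.4 CPM in PAX6-/- (log2 fold change -4.35, adjusted p 0.000168). FAP, a serine protease gene close to GCG on chromosome 2, had 0 counts in all ISL1-/- libraries and 77 in PAX6-/-, which makes it at least 29.2-fold lower in ISL1-/- when 3 counts over the group are taken as the floor. GC, the vitamin D binding protein, had 53.4, 59.7 and 32.6 CPM against 10.7, 12.2 and 8.55 CPM (log2 fold change 2.21, adjusted p 0.0365). The GC call was lost without any 1 of the 6 libraries (adjusted p up to 0.185), and the FAP call without any ISL1-/- library or PAX6-/- replicate 3 (up to 0.0808).

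Among 14 beta cell genes, 3 were called and all were higher in ISL1-/- (0.757% of all genes tested were), with a list median of 0.51. G6PC2, the islet glucose-6-phosphatase, had 0.992, 1.18 and 1.46 CPM in ISL1-/- and no count in PAX6-/-. With 3 counts over the group as the floor it was at least 64.0-fold higher in ISL1-/-, and both knockouts were far below the WT libraries at 87.6 and 104 CPM. UCN3, a peptide of mature beta cells, had 1.98, 1.92 and 1.82 CPM against 0.0207, 0.0357 and 0.0567 CPM. The ISL1-/- level lay within the WT range of 1.48 to 2.84 CPM (log2 fold change between knockouts 5.56, SE 1.25, adjusted p 0.0192). SIX3, a homeobox factor of adult beta cells, had 2.71, 2.63 and 1.85 CPM against 0.581, 0.553 and 0.492 CPM (log2 fold change 2.14, adjusted p 0.00591). For SIX3 the PAX6-/- level lay near WT, with log2 fold changes over WT of 2.15 in ISL1-/- and 0.01 in PAX6-/-. The G6PC2 call was lost without PAX6-/- replicate 1 or 3 (adjusted p up to 0.0558), and the UCN3 call without any 1 PAX6-/- library (up to 0.106). NKX6-1, a beta cell transcription factor, had 200 to 253 CPM in ISL1-/- and 87.8 to 153 CPM in PAX6-/- and was not called (log2 fold change 0.77, adjusted p 0.364). IAPP, a member of the same list, pointed the other way and was not called (log2 fold change -1.30). It had 0.159, 0.156 and 0.124 CPM in ISL1-/- and 0.332, 0.286 and 0.473 CPM in PAX6-/-, without overlap.

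Of 8 delta cell genes, SST and the leptin receptor gene LEPR were called, both higher in PAX6-/- (1.7% of all genes tested were). LEPR had 4.6, 6.86 and 5.54 CPM in ISL1-/- and 18.4, 10.7 and 16.8 CPM in PAX6-/- (log2 fold change -1.43, adjusted p 0.0384). That call held in 1 of the 6 fits that left out a library (adjusted p up to 0.195), and the exons of LEPR overlap those of LEPROT. In the PP cell list (7 tested), ETV1 was higher in PAX6-/- (log2 fold change -1.21, adjusted p 0.00547) and SERTM1 was higher in ISL1-/- (1.58, adjusted p 0.0171, lost without ISL1-/- replicate 2 or PAX6-/- replicate 1 or 2, up to 0.0994). Of 10 genes of serotonin-producing enterochromaffin cells, CBLN1 was called, with 113, 105 and 175 CPM in ISL1-/- and 68.8, 45.0 and 68.9 CPM in PAX6-/- (log2 fold change 1.10, adjusted p 0.0389). The CBLN1 call was lost without any 1 of the 6 libraries (adjusted p up to 0.234). TPH1, the enzyme that starts serotonin synthesis, was not called (log2 fold change 0.49, adjusted p 0.905).

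Of the genes that mark endocrine progenitors, the cells that pass through a NEUROG3-expressing stage before they make hormones, 2 of 10 were called and both were higher in PAX6-/-. The share over all genes tested in that direction was 1.7%. NEUROG3, the transcription factor that starts endocrine differentiation, had 306, 317 and 391 CPM in ISL1-/- and 1124, 752 and 1274 CPM in PAX6-/-. The groups did not overlap, and the WT libraries were lower than both, at 117 and 177.98 CPM. The log2 fold change was -1.64 between the knockouts (SE 0.31, adjusted p 0.00672), and PAX6-/- exceeded WT by 2.83 (adjusted p 0.000468). PAX4, a paired-homeodomain factor induced in these progenitors, had 63.6, 63.5 and 76.4 CPM against 210, 168 and 241 CPM (log2 fold change -1.61, adjusted p 0.00206). None of 9 pancreatic progenitor genes was called, and their median log2 fold change was 0.16. Of 20 general endocrine genes, ST18 and CPE were called, both higher in PAX6-/-, and the list median was -0.01. CPE, the carboxypeptidase that trims prohormones, had 324, 365 and 401 CPM in ISL1-/- and 1019, 674 and 1167 CPM in PAX6-/-, and ISL1-/- was also below the WT libraries at 1122 and 1425 CPM (log2 fold change between knockouts -1.39, adjusted p 0.00687).

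In the list of LIM proteins and their cofactors, 1 of 15 was called, against 2.46% of all genes tested. It was LDB2, the paralog of the ISL1 adaptor LDB1, which had 2.96, 3.21 and 5.34 CPM in ISL1-/- and 17.1, 9.84 and 16.7 CPM in PAX6-/- (log2 fold change -1.92, adjusted p 0.00279). LDB1 itself had 24.8 to 31.7 CPM in ISL1-/- and 26.2 to 33.9 CPM in PAX6-/- (log2 fold change -0.09). Of 3 PAX family members tested, besides PAX6 and PAX4, PAX1 was higher in ISL1-/- at a low level, with 1.66, 0.918 and 3.55 CPM against 0.228, 0.393 and 0.416 CPM (log2 fold change 2.55, adjusted p 0.0258). The PAX1 call held in 1 of the 6 fits with a library left out (adjusted p up to 0.178). HELT, a basic helix-loop-helix repressor known from midbrain development, was nearly absent from ISL1-/-, with 0.0354, 0.0693 and 0.124 CPM, and had 18.4, 13.2 and 21.2 CPM in PAX6-/-. The WT libraries had 0.154 and 0.0302 CPM, so HELT was high in PAX6-/- against both other genotypes (log2 fold change between knockouts -7.78, SE 0.95, adjusted p 0.000124, and 7.44 in PAX6-/- over WT, adjusted p 0.00133).

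FFAR1 and FFAR4, a pair of receptor genes, were called in opposite directions. FFAR1, the receptor through which long-chain fatty acids raise insulin secretion, had 14.6, 17.9 and 16.0 CPM in ISL1-/- and 0.104, 0.464 and 0.113 CPM in PAX6-/-. FFAR4, another receptor for long-chain fatty acids, had 0.212, 0.0693 and 0.373 CPM in ISL1-/- and 15.6, 10.1 and 15.3 CPM in PAX6-/-. The libraries with the high values were thus exchanged between these genes, with log2 fold changes of 6.11 for FFAR1 (SE 0.76, adjusted p 0.000154) and -5.94 for FFAR4 (SE 0.61, adjusted p 2.42e-05). The WT libraries had 75.4 and 84.5 CPM of FFAR1 and 2.2 and 4.11 CPM of FFAR4, and FFAR1 was below WT in PAX6-/- by a log2 fold change of -8.42 (adjusted p 2.43e-05). CASR, the receptor for extracellular calcium, had 19.2, 29.3 and 23.04 CPM in ISL1-/- and 3.86, 1.8 and 4.01 CPM in PAX6-/- (log2 fold change 2.89, SE 0.56, adjusted p 0.00727). Both were below the WT libraries at 151 and 119 CPM. Of the 26 genes that couple glucose and other stimuli to secretion, FFAR1 was higher in ISL1-/-, and the glucose transporter genes SLC2A1 (log2 fold change -0.96, adjusted p 0.00699) and SLC2A3 (-0.78, adjusted p 0.0482) were higher in PAX6-/-. The SLC2A1 call was lost without ISL1-/- replicate 2 (adjusted p 0.0526) and the SLC2A3 call in 5 of the 6 fits with a library left out (up to 0.254). The potassium channel genes ABCC8 and KCNJ11 were not called, with log2 fold changes of 0.52 and 0.16.

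In the list of axon guidance and neurotrophin genes, 4 of 29 were higher in ISL1-/- and 3 were higher in PAX6-/-. The shares over all genes tested were 0.757% and 1.7%. NGFR, the low-affinity neurotrophin receptor p75, had 14.1, 14.2 and 21.0 CPM in ISL1-/- and 0.996, 1.98 and 2.63 CPM in PAX6-/- (log2 fold change 3.13, SE 0.71, adjusted p 0.021). The receptor gene NTRK3 (log2 fold change 1.35) and the guidance cue gene NTN1 (1.01) were also higher in ISL1-/-, while UNC5C, a repulsive receptor for that cue, was lower, with 2.16, 2.65 and 2.24 CPM against 5.81, 11.4 and 7.02 CPM (log2 fold change -1.78, adjusted p 0.00144). With a library left out, the adjusted p rose to 0.127 for NGFR, lost in 5 of the 6 fits, to 0.0984 for NTRK3, lost in 4, and to 0.0787 for NTN1, lost without ISL1-/- replicate 1 or PAX6-/- replicate 3. Of 14 neuron genes, 1 was called in each direction, and the microtubule protein gene MAP2 was the one higher in PAX6-/- (log2 fold change -1.96, adjusted p 0.00551). Of 28 WNT and BMP genes, 1 was called, BMPER, which encodes a secreted BMP-binding protein, with 0.319, 0.347 and 0.482 CPM in ISL1-/- and 14.0, 10.1 and 12.9 CPM in PAX6-/- (log2 fold change -5.0, adjusted p 0.00121).

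The remaining genes with the largest differences were of mixed function. CHRM4, a muscarinic acetylcholine receptor, had 8.75, 8.58 and 26.3 CPM in ISL1-/- and 1.87, 1.86 and 1.93 CPM in PAX6-/- (log2 fold change 2.95, adjusted p 0.000584). It was called in all 6 fits that left out a BFP library, with log2 fold changes from 2.20 to 3.22. The exons of CHRM4 overlap those of the far more abundant MDK on the opposite strand. RBM46, an RNA-binding protein known from germ cells, had 21.2, 20.5 and 13.8 CPM in ISL1-/- and 2.59, 1.95 and 2.02 CPM in PAX6-/- (log2 fold change 3.08, adjusted p 3.34e-05). PLN, phospholamban, which restrains the calcium pump of the sarcoplasmic reticulum, had 17.5, 25.9 and 30.2 CPM against 1.16, 2.48 and 5.58 CPM (log2 fold change 2.99, adjusted p 0.0294). The PLN call was kept in 1 of the 6 fits with a library left out (adjusted p up to 0.152). Higher in PAX6-/- were SV2C, a synaptic vesicle glycoprotein gene (log2 fold change -5.24, adjusted p 3.93e-05), ARHGAP36 (-4.92, adjusted p 1.82e-05) and SHISAL2B (-6.43, adjusted p 0.000801). SHISAL2B overlaps SREK1IP1, whose counts were 1380 to 1618 in each library against 4 to 854 for SHISAL2B. TF, which encodes the iron carrier transferrin, was the called member among 8 liver and yolk sac genes, with 9.76, 10.3 and 9.32 CPM in ISL1-/- and 137, 148 and 202 CPM in PAX6-/-. The groups were far apart (log2 fold change -4.05, SE 0.28, adjusted p 2.49e-07), and ISL1-/- was below WT by a log2 fold change of -5.14 (adjusted p 9.46e-08). The exons of TF overlap those of SRPRB.

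Of 12 genes of the interferon response, 5 were called higher in ISL1-/- (0.757% of all genes tested were), none was called in the other direction, and the list median was 1.25. Their summed level was 1092 to 1304 CPM in ISL1-/-, 447 to 542 CPM in PAX6-/- and 501 to 536 CPM in WT. OAS1, an enzyme that senses double-stranded RNA, had 28.2, 26.4 and 34.9 CPM in ISL1-/- and 7.24, 6.28 and 8.83 CPM in PAX6-/-. The WT libraries (9.05 and 12.0 CPM) lay near PAX6-/-. The log2 fold change of OAS1 was 2.00 between the knockouts (SE 0.21, adjusted p 2.49e-05), 1.501 in ISL1-/- over WT (adjusted p 0.000983) and -0.50 in PAX6-/- over WT (adjusted p 0.225). The transcription factor gene IRF7 had a log2 fold change of 1.27 (adjusted p 0.000459), and IFIT1, which binds foreign RNA, had 1.36 (adjusted p 0.00202). IFI6 had 1.63 (adjusted p 0.0175), lost in 4 of the 6 fits with a library left out (up to 0.0924). With 7258 to 40329 counts in the 6 libraries, against 349 to 2246 for OAS1, IFI6 weighs heavily in the summed level. All 6 libraries had received a lentivirus, and its amount per cell was not measured in these data.

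Some genes were near 0 in every library of a genotype. CHCHD2, a mitochondrial protein that can also regulate transcription (chromosome 7, 56101573 to 56106476, minus strand), had 147, 132 and 142 CPM in ISL1-/-. In PAX6-/- a single read was counted in 3 libraries, against 25086 in ISL1-/-, a ratio of 22078 with a 95% counting interval from 3962 to 872088. The WT libraries had 0.154 and 0.212 CPM, so CHCHD2 was high in ISL1-/- against both other genotypes (log2 fold change over WT 9.59, adjusted p 7.55e-06). CAT, the peroxide-degrading enzyme catalase, had 104, 117 and 120 CPM in ISL1-/- and 1.06, 0.75 and 1.02 CPM in PAX6-/-, and here the WT libraries, at 74.4 and 84.9 CPM, lay near ISL1-/- (log2 fold change between knockouts 6.91, SE 0.39, adjusted p 2.82e-08, and -6.40 in PAX6-/- over WT, adjusted p 1.03e-07). TSPYL5, a relative of the nucleosome assembly proteins, had 0.319, 0.0866 and 0.218 CPM in ISL1-/- and 59.0, 45.3 and 50.7 CPM in PAX6-/-. ZNF585A, a zinc finger gene, had 0.124, 0.26 and 0.109 CPM against 12.6, 9.61 and 12.2 CPM. For both of these the WT libraries lay near PAX6-/-, with log2 fold changes over WT of 0.25 for TSPYL5 (adjusted p 0.894) and 0.14 for ZNF585A (adjusted p 0.92) in PAX6-/-. In ISL1-/- they were -7.69 (adjusted p 2.2e-05) and -5.97 (adjusted p 4.31e-06). CHCHD2, CAT and TSPYL5 stand in a list of 6 genes known to be silenced in some stem cell lines and not others, of which 5 were tested and 3 were called. Over all genes tested 2.46% were called. The list was chosen with earlier results of these data known, so nothing is read from its count. The other tested members, ZNF354C and ZNF528, had log2 fold changes of -0.20 and -0.10. Whether the lines differed in these genes before differentiation was not tested. In a list of 20 imprinted genes, 16 were tested and 2 were called, PEG10 (log2 fold change -1.66, adjusted p 0.000504) and NNAT (-1.63, adjusted p 0.0413, lost in 5 of the 6 fits with a library left out, up to 0.195), both higher in PAX6-/-. In that direction 1.7% of all genes tested were called. The exons of PEG10 overlap those of SGCE, and those of NNAT overlap those of BLCAP.

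**Figure D3:**
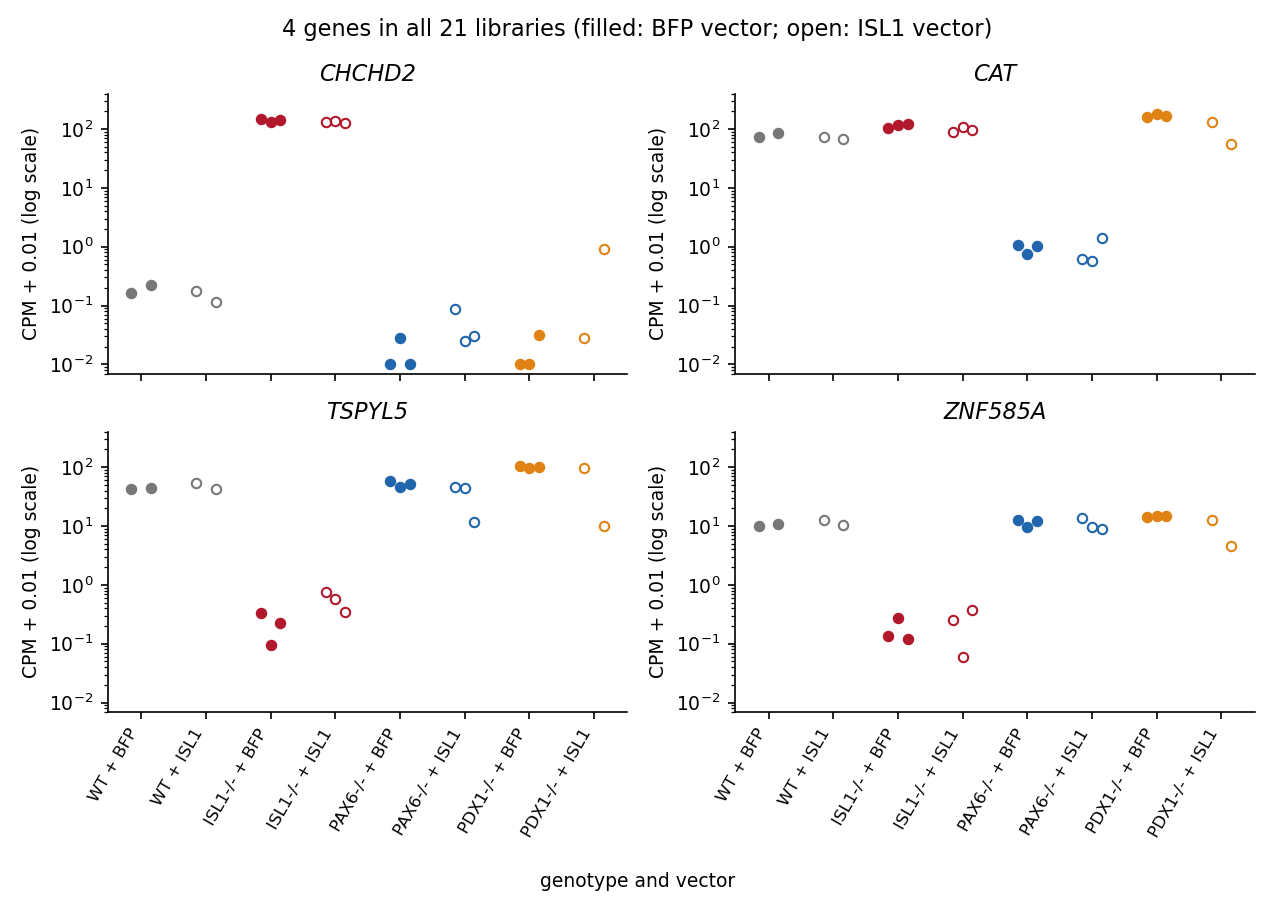
CPM plus 0.01 (vertical axis, log scale) of CHCHD2, CAT, TSPYL5 and ZNF585A in all 21 libraries by genotype and vector (horizontal axis); filled points are BFP libraries and open points ISL1 vector libraries. CHCHD2 is high in ISL1-/- alone, CAT is low in PAX6-/- alone, and TSPYL5 and ZNF585A are lowest in ISL1-/-, under both vectors.

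Markers of other cell types gave the following values. Of 8 cardiac muscle genes, 1 was called, TTN (log2 fold change 1.37, adjusted p 0.0149, lost without ISL1-/- replicate 3 or PAX6-/- replicate 1 or 3, up to 0.104), and the list median was 2.44. Their summed level was 97.7 to 377 CPM in ISL1-/- and 34.4 to 72.1 CPM in PAX6-/-, and the highest ISL1-/- library, replicate 3, had 185 CPM of the atrial myosin gene MYH6 against 38.7 and 50.6 CPM in the others. PLN, described above, is a cardiac muscle gene as well, and the part of these cells in its difference was not tested. None of 11 mesenchyme genes was called, and their sum was 152 to 401 CPM in ISL1-/- and 203 to 939 CPM in PAX6-/-. None of 9 duct, 7 acinar or 4 endothelium and blood genes was called. SOX2, a factor of foregut and pluripotent cells, was the called member of 8 gut and stomach genes (log2 fold change -1.61, adjusted p 0.0351, lost in 5 of the 6 fits, up to 0.163), and LIN28A was called among 5 pluripotency genes (-1.002, adjusted p 0.0446), a call lost without any 1 of the 6 libraries (up to 0.219). None of 18 cell cycle genes was called, with log2 fold changes from 0.28 to 0.91 and a median of 0.61. None of 12 ER stress genes was called (median -0.05). Over the 30 lists, 351 of 370 genes were tested and 52 were called, 23 higher in ISL1-/- and 29 higher in PAX6-/-, against 2.46% of all genes tested. The lists were chosen with earlier results of these data known, so nothing is read from that difference. Without both libraries that stand apart, 113 were called.

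**Figure D4:**
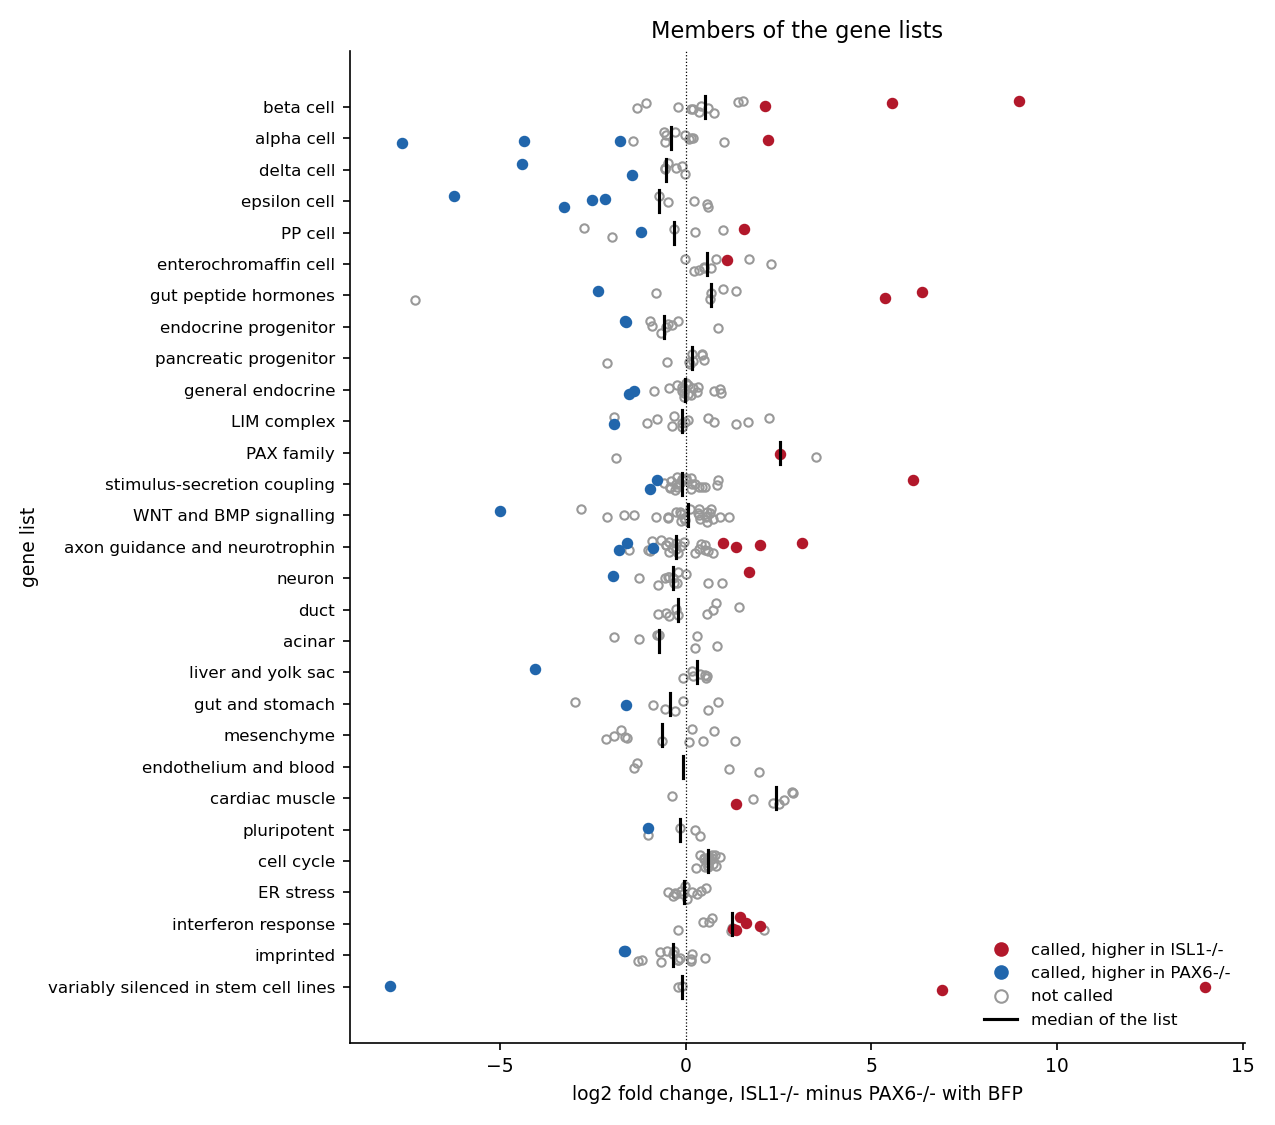
Log2 fold change of ISL1-/- minus PAX6-/- with BFP (horizontal axis) for the tested members of each gene list but that of the 3 target genes (vertical axis). Filled red points are called higher in ISL1-/-, filled blue points called higher in PAX6-/-, open points are not called, and black bars are list medians. The interferon list is called in the red direction alone and the epsilon list in the blue direction alone. Other lists with fewer calls, such as the beta cell and endocrine progenitor lists, are also called in a single direction.

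The same genotypes given the ISL1 vector form 6 libraries that the BFP comparison does not use. There, 590 genes (2.28%) were called, 220 higher in ISL1-/- and 370 higher in PAX6-/-. Of the 636 genes called with BFP, 338 were called with the ISL1 vector as well, which is 53.1% of the BFP calls and 57.3% of the ISL1 vector calls, and 337 of the 338 had the same direction. The sign was the same for 629 of the 636 genes (98.9%), and across those genes the log2 fold changes correlated at a Pearson r of 0.92 and a Spearman rho of 0.90, which is a description over genes and not over independent samples. Without PAX6-/- with the ISL1 vector replicate 3, the ISL1 vector comparison called 362 genes.

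GHRL had 35.8, 37.3 and 55.0 CPM in ISL1-/- and 2481, 1933 and 15335 CPM in PAX6-/- with the ISL1 vector, and the highest value came from the library that stands apart. The log2 fold change was -7.27 (adjusted p 1.12e-05) with that library and -5.69 (adjusted p 8.28e-09) without it. CRH (log2 fold change -7.99), CCK (5.14), GIP (5.30), FFAR1 (7.27), FFAR4 (-4.75), CASR (5.36), NEUROG3 (-1.65), TF (-3.91), OAS1 (1.84) and CHCHD2 (11.72) were called in the BFP direction with the ISL1 vector too, with adjusted p from 4.99e-07 to 0.00877. Without the library that stands apart all 10 were still called, with log2 fold changes of -6.40 for CRH, 6.22 for CCK, 5.93 for GIP, -3.78 for FFAR4 and -1.19 for NEUROG3. Other genes above were not called there, among them LDB2 (-0.37, adjusted p 0.605) and SST (-2.01, adjusted p 0.227, and -0.04 without that library). The same held for UNC5C (-0.16, adjusted p 0.812), PLN (1.60, adjusted p 0.287), FAP (-3.09, adjusted p 0.181) and GC (2.04, adjusted p 0.0603). The difference between vectors was not called for any of these genes. GCG had 2197, 2689 and 5362 CPM in ISL1-/- and 32.0, 28.1 and 339 CPM in PAX6-/- with the ISL1 vector, and it was called there (log2 fold change 4.68, adjusted p 0.0112) although not with BFP (1.03, adjusted p 0.85). The difference of these GCG values between vectors, -3.65, had an adjusted p of 0.98. Without PAX6-/- with the ISL1 vector replicate 3, the ISL1 vector value was 6.83 (adjusted p 0.000416) and the difference -5.80 (adjusted p 0.151). The difference was called without both libraries that stand apart (-5.77, adjusted p 0.00103) and by voom with sample quality weights (-5.24, adjusted p 0.000214). The test of the difference between vectors called 1 gene of 25884 (0.00386%), SLC24A4, and 608 genes had an unadjusted p under 0.05.

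**Figure D5:**
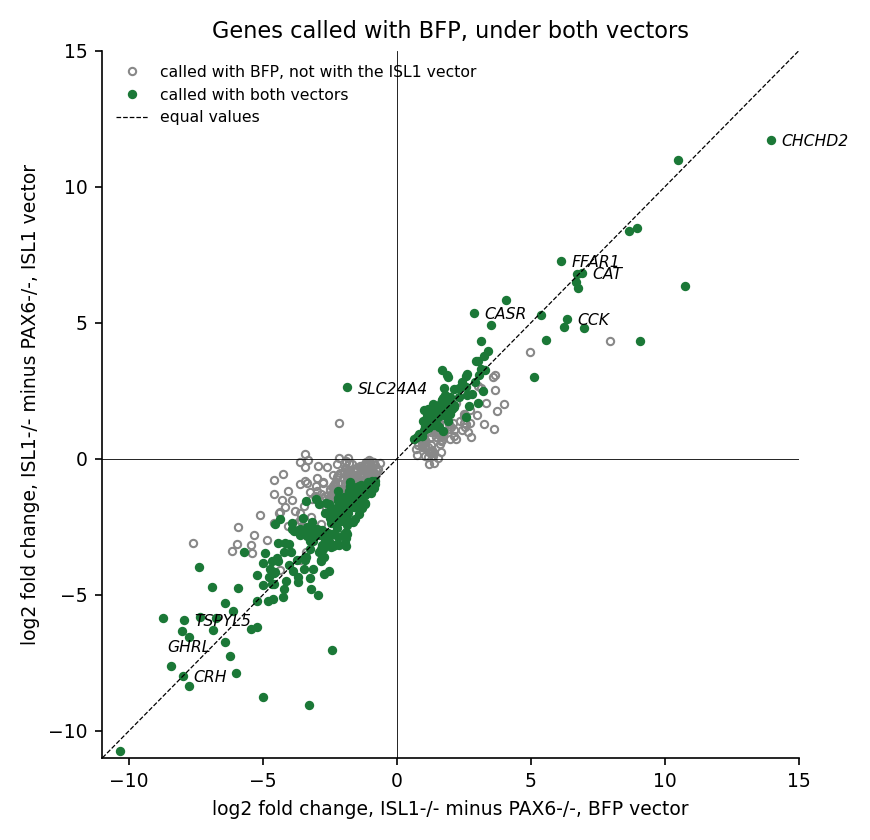
Log2 fold change of ISL1-/- minus PAX6-/- with the BFP vector (horizontal axis) and with the ISL1 vector (vertical axis) for the 636 genes called with BFP; filled points were called with both vectors and open points with BFP alone. The dashed line marks equal values, 629 genes lie on the same side of 0 on both axes, and SLC24A4 is the gene called in opposite directions.

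Called genes were often neighbours on a chromosome. For 115 of the 636 called genes (18.1%), the next tested gene on either side was called in the same direction. Of all genes tested, 1.49% lay beside a gene called higher in ISL1-/- and 3.30% beside one called higher in PAX6-/-. Pairs of this kind, chosen after their values were seen, included the epithelial sodium channel subunit genes SCNN1G and SCNN1B on chromosome 16, with log2 fold changes of -4.25 and -3.93. Others were KCNJ8 and ABCC9 on chromosome 12, which encode the subunits of an ATP-sensitive potassium channel (-2.46 each). UCN3 adjoined the tubulin gene TUBAL3 on chromosome 10, which had 235 counts in ISL1-/- and 0 in PAX6-/- and was at least 68.9-fold higher in ISL1-/-. Overlapping exons and unstated use of strand can enter such pairs, and their part was not tested.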

How the data were processed

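RNA-seq counts of 21 libraries were used. The labels' protocols name SMART-Seq v4 for the cDNA and KAPA EvoPrep for the library. The authors deposited raw read counts per gene with exon positions, in the layout of featureCounts, per the file headers. The submitters' processing notes name STAR 2.7.11b, featureCounts 2.1.1 and GRCh38; the annotation release, strand setting and treatment of multi-mapping reads were not given in the sources used here. The table holds 62700 genes; 62699 were used, since the ANK2 entry is broken over 3 lines. Symbols were found for all 62699 IDs in a table of gene names. Groups come from the sample titles.

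Genes were tested with edgeR 4.0.16 (R 4.3.3): TMM scaling, filterByExpr by group (10 counts, total 15; 25884 genes kept), and quasi-likelihood F tests in 1 model of all 21 libraries without a block, in which each group has a coefficient, since 3 against 3 libraries leave few degrees of freedom. P-values were adjusted by Benjamini-Hochberg per contrast, and an adjusted p under 0.05 is a call. Log2 fold changes use a prior count of 0.125, and the SE is the fold change divided by the root of F. A group with 0 counts was given a floor of 3 counts over the group; intervals are 95% exact and, like floors, cover counting error only. The median of all log2 fold changes was -0.01. P-values measure the spread between these libraries. With no clone named in the labels, effects of a knockout and other differences between the lines cannot be told apart under either vector.

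Named genes are ISL1, PAX6, PDX1, 7 hormone genes, the 10 largest differences in each direction (called, 10 CPM or more in the higher group, no overlap of the 6 libraries, with a gene symbol) and up to 4 called members per list; some genes that meet this rule are not reported here. Members and lists were chosen with earlier results of these data known. Same-numbered libraries of the knockouts correlated at 0.00341, 0.057 and 0.177 in their deviations from the group means, and differently numbered ones at -0.118 to 0.0748. The main model did not pair libraries by number, and counts with a replicate block are given below. Whether same-numbered libraries shared a round of culture or preparation was not tested. Alternatives were RLE and upper quartile scaling, other filters, DESeq2 1.42.0, limma 3.58.1 voom with and without quality weights, robust dispersion, fewer libraries, replicate blocks and other call rules. The scripts were tested on simulated data.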

Additional observations from a re-analysis of the deposited data

Results flagged for a closer look

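SLC24A4, a sodium, potassium and calcium exchanger gene on chromosome 14, was the gene whose difference between ISL1-/- and PAX6-/- itself differed between the vectors. With BFP it had 0.336, 0.329 and 0.233 CPM in ISL1-/- and 1.93, 0.821 and 0.549 CPM in PAX6-/-, a log2 fold change of -1.87 (adjusted p 0.0129, edgeR quasi-likelihood test). With the ISL1 vector it had 6.97, 6.57 and 7.53 CPM in ISL1-/- and 1.36, 1.02 and 1.03 CPM in PAX6-/-, a log2 fold change of 2.63 (adjusted p 0.000567). The WT libraries with BFP had 11.5 and 12.1 CPM. The difference between the log2 fold changes was -4.49 (SE 0.54, adjusted p 0.00422), and it was -4.43 (adjusted p 0.00956) without PAX6-/- with the ISL1 vector replicate 3. The BFP difference alone was lost without PAX6-/- replicate 1 (log2 fold change -1.19, adjusted p 0.0986), ISL1-/- replicate 2 (-1.94, adjusted p 0.0519) or ISL1-/- replicate 3 (-1.71, adjusted p 0.0839).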

How the results depend on the processing

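The count of 636 genes between ISL1-/- and PAX6-/- with BFP, the 590 with the ISL1 vector, the 1 that differed between vectors and the 52 list members moved most with how the spread was estimated, in that order below. DESeq2 called 1066, 1203 and 3 genes. Voom with sample quality weights called 3222 (41.1% higher in ISL1-/-, against 30.8%), 2762, 13 and 141. A fit of only the groups compared called 1613, 102, 2 and 108, and one of only the BFP groups called 1925 (43.0% higher in ISL1-/-) with 106 list members. Without both libraries that stand apart, an alternative chosen after seeing the data, the counts were 2385 (43.8%), 1396 (54.4% against 37.3%), 5 and 113. With no filter on low counts, 2 genes differed between vectors. An adjusted p under 0.01 left 305, 245 and 31 list members. With 1 library left out, the counts ranged from 351 to 1058, from 265 to 1113, from 1 to 2 and from 32 to 73, and each upper bound but that of the difference, which several libraries gave, came without PDX1-/- with the ISL1 vector replicate 2. Without PAX6-/- with the ISL1 vector replicate 3 they were 928, 362, 2 and 67. The other scalings, filters, voom and robust dispersion kept the 636 within 1.5 times (598 to 770).

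The labels give the groups replicate numbers, and same-numbered libraries did not deviate together in every pair. With the replicate block by title number the counts were 692, 627, 1 and 55. The replicate block by library number gave 1271, 1341, 2 and 89, and the replicate block with only the groups compared gave 2303 (43.0%), 99, 2 and 158.

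Of the named genes, 60 were called, 38 of them in all 6 fits that left out a BFP library and 49 in every other setting run, and 0 changed direction. Tests against WT were kept for genes whose call held under the alternatives. Those of GHRL, CAT, FFAR1 and CASR in ISL1-/- and of CRH, TF, SST and ISL1 in PAX6-/- changed their call with the setting and are not given, so the printed ones do not show how stable such tests are in general. Depth limits genes near 0, such as PPY, FAP and G6PC2.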

Other observations

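The gene families described here were picked with their values already seen, and none was tested as a group. Of all genes tested, 1.7% were called higher in PAX6-/- and 0.757% higher in ISL1-/-. HOX genes, which pattern the body axis, had 24 tested members, of which 4 were called higher in PAX6-/- and 1 higher in ISL1-/-, with a median log2 fold change of -2.11 against -0.01 over all genes. HOXB2 had 8.67 CPM ± 0.82 in ISL1-/- and 47.7 ± 13.2 in PAX6-/- (SD, n = 3 each; log2 fold change -2.46, adjusted p 0.0307 in edgeR), and HOXB13 was the member higher in ISL1-/- (3.26, adjusted p 0.0419). Of the 7 MEIS and PBX genes, whose products bind DNA with HOX proteins, 4 were called and all were higher in PAX6-/-. Among these, MEIS1 had 26.4 CPM ± 2.04 in ISL1-/- and 90.3 ± 8.499 in PAX6-/- (log2 fold change -1.77, adjusted p 0.000479). Of 6 IRX genes, IRX3 and IRX5, both on chromosome 16, were higher in ISL1-/-. IRX3 had 86.8 CPM ± 8.44 against 17.3 ± 4.80 (log2 fold change 2.33, adjusted p 5.63e-05), and the 20.9 CPM of WT lay near PAX6-/-.

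Of 10 tested proneural helix-loop-helix genes, 3 were higher in ISL1-/-, among them NEUROD4 (log2 fold change 1.61) and NEUROG1 (2.45), and NEUROG3 was higher in PAX6-/-. NEUROG1 was close to the threshold (adjusted p 0.0499). Among 5 receptors for lipids, FFAR3 (log2 fold change -2.08) and GPR119 (-1.69, 10.5 CPM against 33.9 CPM, and 224 CPM in WT) were higher in PAX6-/- together with FFAR4, and FFAR1 was higher in ISL1-/- (6.11). Of 85 potassium channel genes tested, 9 were called higher in PAX6-/- and 3 higher in ISL1-/-, beside the 1.7% and 0.757% over all genes. The calcium-regulated subunit gene KCNIP1 was among the latter, with 79.8 CPM ± 19.0 against 15.7 ± 4.73. Of 24 glutamate receptor genes, 4 were called and all were higher in PAX6-/-, led by GRM7 with 0.391 CPM against 9.97 CPM (log2 fold change -4.67, adjusted p 1.82e-05).

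The paralogs ZNF585A and ZNF585B were called in opposite directions. ZNF585A had 0.164 CPM in ISL1-/-, 11.4 in PAX6-/- and 10.4 in WT, while ZNF585B had 6.11 in ISL1-/-, 0.761 in PAX6-/- and 0.898 in WT. Near-identical stretches could let reads of one be counted for the other, which was not tested.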
